A study of Mus musculus with 8 samples.

Results

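The inhibitor of DNA binding (ID) genes Id1, Id2, Id3 and Id4 and the E protein genes Tcf3, Tcf4 and Tcf12 were described in multipotent progenitors of FLT3-ITD and wild type mice. These 7 genes, of 18193 with a probe set of their own, were read from all 22 probe sets that the platform annotation gives to exactly 1 of them. The family was chosen from earlier results of the same arrays, in which Id2 had 1 of the largest differences between the genotypes. The differences between genotypes are therefore given below as a description of the members, with no p-value, and whether a member passed a threshold is stated only as a count beside the same count over all features.

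The study compared 4 FLT3-ITD samples with 4 wild type samples, each hybridised to 1 array. The ITD allele carries a stretch of the Flt3 gene, which encodes a cytokine receptor with kinase activity, repeated in tandem, a change known from acute myeloid leukaemia. All mice were female, 8 to 10 weeks old and on the C57BL6 background, and the cells came from bone marrow. They were sorted as lacking lineage markers and CD150 and carrying Sca-1, cKit and CD48, a population that the labels name lympho-myeloid multipotent progenitors. Within each genotype the samples are named 1, 2, 3 and 037. The last carries the number 1 as well, so it may be a repeat of replicate 1. Whether samples came from separate mice, whether the allele was on 1 or both chromosomes, and what drives its expression are not given in the sources used here. Errors and p-values therefore cover sample-to-sample spread alone, and that spread may be technical.

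E proteins are transcription factors of the basic helix-loop-helix class, which bind DNA as dimers at the E-box, spelled CANNTG. ID proteins share the helix-loop-helix through which dimers form but lack the basic stretch that contacts DNA, so an E protein held by an ID protein cannot bind. In blood progenitors E proteins are known for switching on lymphoid genes, while Id2 is required for natural killer cells, other innate lymphoid cells and some dendritic cells, and Tcf4 for plasmacytoid dendritic cells.

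The 250 bases before the start of Id2 and of Id3 are shown because these are the ID genes with the largest difference and with almost none. Both come from RefSeq on build GRCm38.p6. Id2 lies on the minus strand, window chr12:25096093-25096342, and Id3 on the plus strand, window chr4:136143572-136143821. Capitals mark an E-box or the letters GGCGCC, part of a known BMP response element.
Id2: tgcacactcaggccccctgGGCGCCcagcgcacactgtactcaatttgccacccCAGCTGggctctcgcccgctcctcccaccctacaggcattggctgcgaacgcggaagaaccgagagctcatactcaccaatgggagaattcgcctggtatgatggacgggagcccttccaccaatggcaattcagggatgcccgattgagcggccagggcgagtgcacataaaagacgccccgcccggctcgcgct
Id3: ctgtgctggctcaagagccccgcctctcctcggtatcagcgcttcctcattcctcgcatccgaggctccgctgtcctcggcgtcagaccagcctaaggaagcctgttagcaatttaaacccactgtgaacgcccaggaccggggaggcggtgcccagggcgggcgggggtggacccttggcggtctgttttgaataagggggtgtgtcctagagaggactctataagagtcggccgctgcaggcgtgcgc

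The Id2 window held 1 E-box, CAGCTG, whose first base is at position -196 counted from the start, and 1 GGCGCC at position -231. The Id3 window held neither, and the window of Id4 held 1 GGCGCC at position -148. E-boxes were also found before Tcf3, with 1 match at position -54, and in 2 of the 3 windows of Tcf12, at positions -240 and -149. The letters TTCNNNGAA, which STAT factors bind, were in none of the windows of the 5 members matched. No window was available for Id1 or Tcf4, so no motif was looked for there. Each motif reads the same on both strands, and none of these 3 overlap in the windows shown. Over all 32851 windows of this length 66.2% held an E-box, 9.59% held GGCGCC and 7.02% held TTCNNNGAA.

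Among the inhibitors, Id2 was higher in FLT3-ITD progenitors on all 3 of its probe sets, Id1 was slightly higher, and Id3 and Id4 overlapped between the genotypes. The 8 probe sets of the ID genes had 7 positive differences and 1 negative, with a median of 0.51. The genotypes did not overlap on 3 of them, against 5.24% of all 34945 probe sets with 1 gene. All 14 probe sets of the E protein genes overlapped. Of these, 11 were lower and 3 higher in FLT3-ITD, with differences between -0.41 and 0.35 and a median of -0.27. Over all 10762 genes tested the median difference was 0.02. That median takes 1 probe set per gene past the filter, while the medians of the members take all their probe sets, so they are not like measures.

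Id2 encodes the inhibitor known from innate lymphoid and dendritic cell development. On its probe set of highest mean, 1435176_a_at, the log2 expression values were 9.41, 9.12, 8.83 and 8.31 in FLT3-ITD replicates 1, 2, 3 and 037, against 5.67, 4.75, 4.84 and 5.37 in the wild type replicates in the same order of names. Every FLT3-ITD sample lay above every wild type sample, with a gap of 2.64 between the lowest and the highest of them. The means were 8.92 ± 0.47 in FLT3-ITD and 5.16 ± 0.44 in wild type (SD, n = 4 each), a difference of 3.76 ± 0.28 (SE of the fit), or 13.5-fold on the scale of these values. It ranked 5 of 10762 genes from the highest difference. The wild type samples lay below the array medians of 5.98 to 6.05, so the fold rests on a dim level and Id2 entered the fit through its FLT3-ITD samples.

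The other probe sets of Id2 gave smaller differences. Probe set 1422537_a_at read 8.85, 7.65, 7.69 and 6.85 in FLT3-ITD replicates 1, 2, 3 and 037, against 5.87, 5.98, 5.94 and 6.13 in wild type. Again no FLT3-ITD sample overlapped wild type, and the difference was 1.78 ± 0.36 (SE), or 3.43-fold. The third, 1453596_at, read 5.89, 4.98, 3.53 and 3.77 in FLT3-ITD, against 3.65, 3.76, 3.79 and 3.33 in wild type. It lay below the array median on all 8 arrays and took no part in the fit, and only FLT3-ITD replicates 1 and 2 stood above wild type. FLT3-ITD replicate 1 was the highest sample on all 3 probe sets. That array also correlated least with the others, at 0.948 to 0.959 over all probe sets. FLT3-ITD replicate 037 was the lowest of its genotype on the 2 brighter probe sets. Its difference between 3′ and 5′ probe sets of the Gapdh control, a sign of RNA quality, was 2.99, against 1.88 to 2.29 in the other FLT3-ITD arrays and 1.82 to 2.08 in wild type. The part of either array's quality in the level of Id2 was not tested, and without FLT3-ITD replicate 1 or without 037 the difference on 1435176_a_at was 3.60 and 3.96.

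Id1, known as an early target of BMP signalling, was measured by 1 probe set. It read 7.17, 6.54, 6.37 and 6.74 in FLT3-ITD replicates 1, 2, 3 and 037, against 6.17, 6.14, 6.15 and 6.12 in wild type. The genotypes did not overlap, but the gap was 0.20, and the FLT3-ITD samples spread far more than wild type. The means were 6.70 ± 0.35 in FLT3-ITD and 6.15 ± 0.02 in wild type, a difference of 0.56 ± 0.17 (SE), or 1.47-fold. Id1 did not pass the threshold over all genes.

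Id3, known for restraining E proteins in lymphocytes, read 6.52, 6.58, 6.64 and 6.76 in FLT3-ITD, against 6.52, 6.71, 6.13 and 6.72 in wild type. The wild type range covered most of the FLT3-ITD range, and the difference was 0.11 ± 0.16 (SE), or -0.02 without wild type replicate 3. Id4, known mainly from the nervous system and mammary gland, did not enter the fit. Its brightest probe set, 1423260_at, read 5.47, 6.76, 6.95 and 5.26 in FLT3-ITD, against 5.26, 6.76, 5.26 and 5.33 in wild type. In both genotypes samples lay at either end with few between, so the mean difference of 0.46 stands for no typical sample. The other 2 probe sets of Id4 lay below the array median everywhere, at 2.67 to 4.18 in FLT3-ITD and 2.77 to 3.60 in wild type. All 3 were designed against 1 sequence entry, so they are not independent readings.

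**Figure D1:**
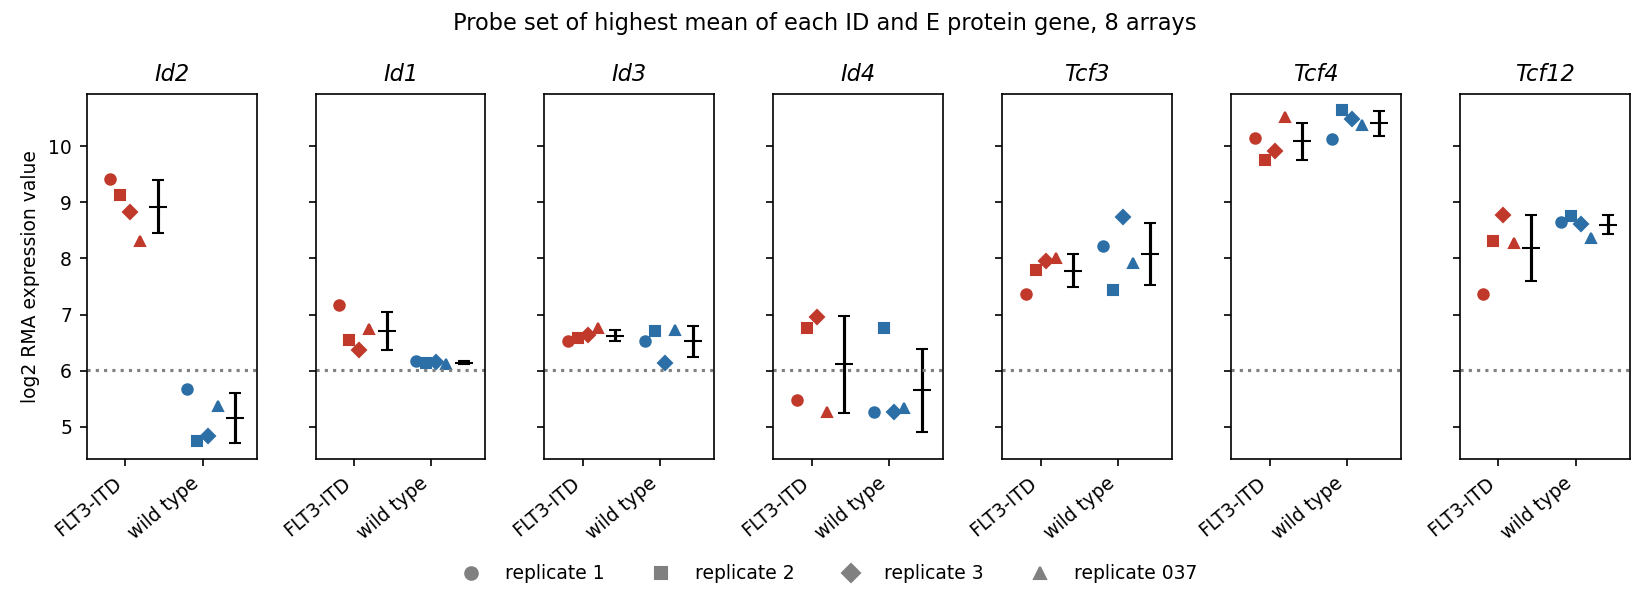
Log2 expression value (vertical axis) of the probe set of highest mean of each of the 7 genes, with FLT3-ITD samples in red on the left and wild type samples in blue on the right of each panel, 4 arrays each, and symbols for the replicate names. Black marks are means with SD, and the dotted line is the mean of the array medians. Id2 samples sit at 8.31 to 9.41 in FLT3-ITD and 4.75 to 5.67 in wild type, and in the panels of Id3, Id4 and the E proteins the genotypes overlap; heights of different genes are not to be compared.

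Among the E proteins, Tcf3 encodes the factors best known from early B cell development. Its probe set 1426297_at read 7.36, 7.79, 7.96 and 8.00 in FLT3-ITD replicates 1, 2, 3 and 037, against 8.22, 7.43, 8.74 and 7.91 in wild type. The values overlapped widely, with a difference of -0.30 ± 0.27 (SE). It was -0.16 without FLT3-ITD replicate 1, -0.08 without wild type replicate 3 and -0.51 without wild type replicate 2. The other 2 probe sets, designed against 1 shared entry, differed by 0.02 ± 0.19 and -0.40 ± 0.34, and so gave no common direction. The first of these is of the x_at type, whose probes can also bind other transcripts.

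Tcf4, the E protein of the plasmacytoid dendritic lineage, was lower on average on all 6 of its probe sets. The brightest, 1416724_x_at, read 10.14, 9.75, 9.92 and 10.52 in FLT3-ITD, against 10.12, 10.64, 10.48 and 10.38 in wild type. FLT3-ITD replicates 1 and 037 lay among the wild type values, and the difference was -0.32 ± 0.19 (SE). The next 2 probe sets differed by -0.23 ± 0.20 and -0.39 ± 0.16, and the pair designed against 1 entry by -0.31 ± 0.19 and -0.35 ± 0.22. No probe set of Tcf4 separated the genotypes, and the nearest to doing so was 1416723_at, with 9.36, 9.58, 9.91 and 9.84 in FLT3-ITD against 10.06, 10.10, 10.21 and 9.86 in wild type, where 1 wild type sample lay within the FLT3-ITD range. The sixth probe set, 1416725_at, lay below the array median on all arrays and differed by -0.01.

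Tcf12, which encodes the E protein called HEB and is known from thymocyte development, gave different pictures on its 5 probe sets. On the brightest, 1427670_a_at, the values were 7.37, 8.31, 8.78 and 8.27 in FLT3-ITD and 8.64, 8.76, 8.62 and 8.36 in wild type, a difference of -0.41 ± 0.27 (SE). FLT3-ITD replicate 1 was the lowest of all 8 arrays there. On 1439209_at and 1421908_a_at the same sample was the highest of all 8, at 8.32 and 7.72, with the other arrays at 5.97 to 7.58 and 6.47 to 7.66. The 3 remaining differences among probe sets in the fit were -0.21 ± 0.22, 0.08 ± 0.46 and -0.17 ± 0.31. Averaged over all 5 probe sets, Tcf12 stood at 7.24 in FLT3-ITD and 7.31 in wild type. Without replicate 1 of FLT3-ITD the difference on the brightest probe set was -0.14, and that on 1439209_at was -0.29, so that its sign turned.

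**Figure D2:**
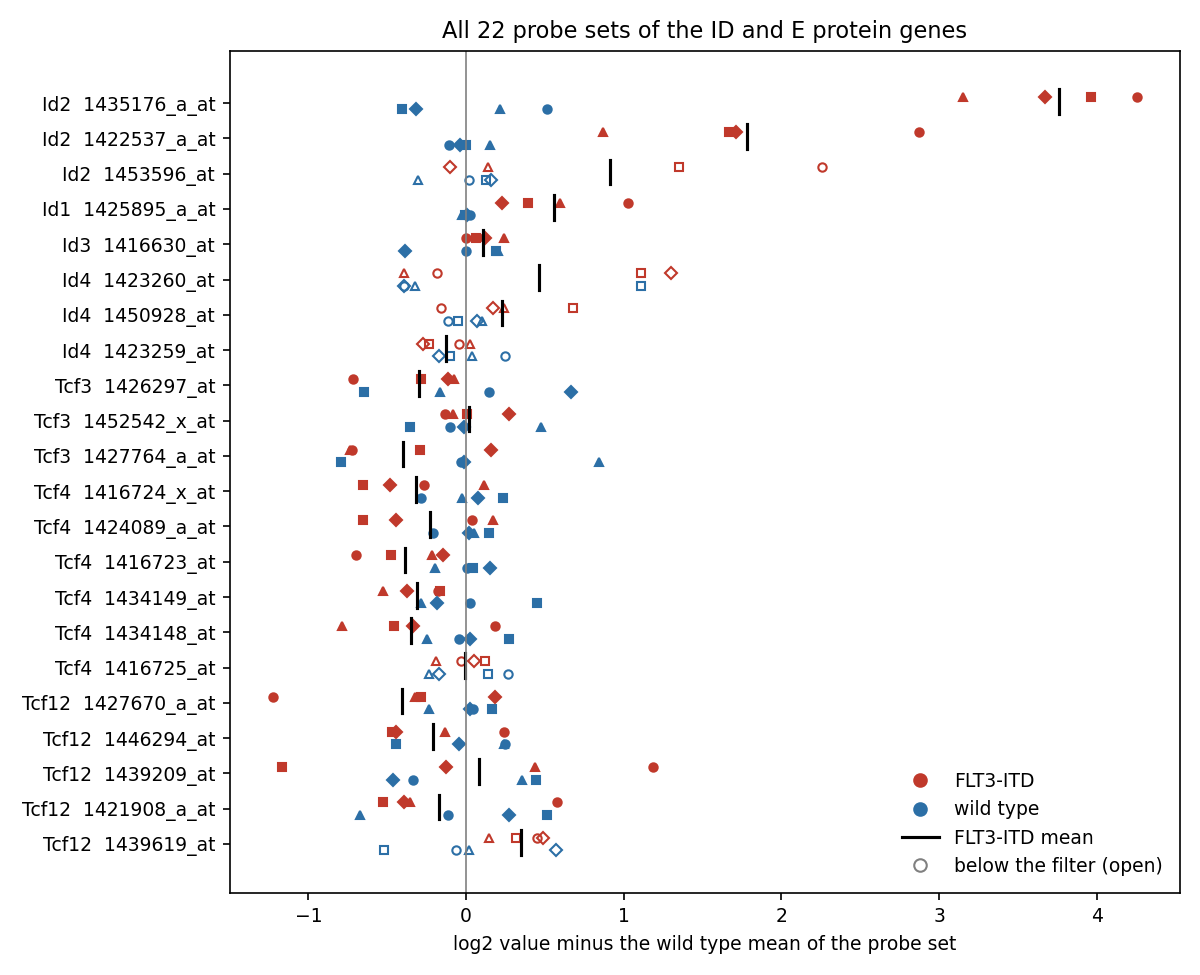
All 22 probe sets (rows) with each array's log2 value minus the wild type mean of that probe set (horizontal axis); FLT3-ITD samples are red and drawn above the wild type samples in blue, symbols give the replicate as in the plot of levels, the black bar is the FLT3-ITD mean, and open symbols mark probe sets below the filter. The FLT3-ITD means of Id2 lie at 3.76, 1.78 and 0.91, and those of the E proteins between -0.41 and 0.35.

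In the fit over genes (limma, 2-sided, Benjamini-Hochberg adjustment), in which each gene is represented by its brightest probe set on average and has to exceed the array's median in 4 or more arrays, 1 of 6 members tested, Id2, was past an adjusted p of 0.05, where 0.427% of all genes tested were past it upward and 0.177% downward. In the fit over probe sets, 1 of 16 member probe sets was past it, against 0.416% of 19208. Of all 22 member probe sets 3 did not overlap between the genotypes, against 5.24% of all 34945 probe sets with 1 gene. The members were chosen with this contrast known, so nothing is read from these counts.

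The genes whose values followed Id2 most closely over the 8 arrays were Naaa, a lysosomal amidase, with a Pearson correlation of 0.996, Cd74, the invariant chain of MHC class II, with 0.995, H2-Aa with 0.992, H2-Eb1 with 0.988 and Clec1a, a C-type lectin, with 0.986. The genotypes form separate clusters in these genes, so the correlation mainly restates that each was high in FLT3-ITD and low in wild type. In FLT3-ITD replicates 1, 2, 3 and 037 Naaa read 9.41, 9.10, 8.45 and 7.97, against 5.76, 5.12, 4.92 and 5.55 in wild type. Cd74 read 11.98, 11.61, 11.53 and 10.59 in FLT3-ITD, against 7.61, 6.70, 7.43 and 7.48 in wild type. In both genes, as in Id2, FLT3-ITD replicate 1 was the highest and 037 the lowest of the FLT3-ITD samples. With each genotype's mean removed, the correlations with Id2 over the 8 arrays were 0.95 for Naaa, 0.87 for Cd74, 0.79 for H2-Aa, 0.81 for H2-Eb1 and 0.72 for Clec1a.

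The genes running most opposite to Id2 were Hemgn, a nuclear protein of blood progenitors, at -0.965, Star at -0.963, syndecan-1 (Sdc1) at -0.962, Mdga1 at -0.962 and Prps2 at -0.959. Hemgn read 7.05, 7.83, 7.49 and 8.21 in FLT3-ITD, against 9.02, 9.35, 9.25 and 9.04 in wild type, so that replicate 1 was its lowest and 037 its highest FLT3-ITD sample. With each genotype's mean removed, the correlations with Id2 were -0.79 for Hemgn, -0.23 for Star, -0.81 for Sdc1, -0.60 for both Mdga1 and Prps2. All 10 genes were picked by this likeness out of 10762, and these correlations carry no test. For the other members the 3 closest genes were Haao, Atp5k and Klhl11 for Id1, with correlations of 0.963 to 0.984, Hps6, Spata16 and Ppm1l for Id3, with 0.931 to 0.953, Gtf2h3, Exosc2 and Ntpcr for Tcf3, with 0.939 to 0.997, Gprasp1, Lgalsl and Prmt9 for Tcf4, with 0.920 to 0.937, and Atxn1, Zfp871 and Mecom for Tcf12, with 0.960 to 0.965. No gene appeared in more than 1 of these groups.

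**Figure D3:**
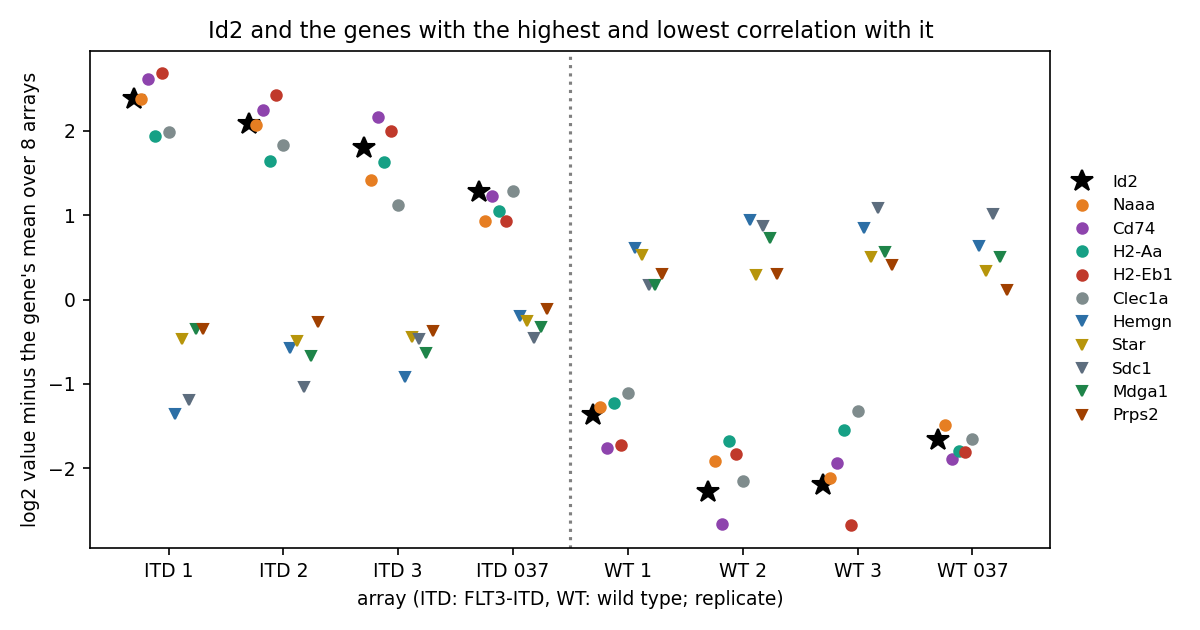
Log2 value of Id2 (star), of the 5 genes with the highest correlation with it (circles) and of the 5 with the lowest (triangles), each minus its own mean over the 8 arrays (vertical axis), for the 4 FLT3-ITD arrays on the left and the 4 wild type arrays on the right. Id2 and the circles lie above their means in every FLT3-ITD array and below them in every wild type array, and the triangles do the reverse.

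Genes around the ID and E proteins were not chosen by the rule, but their lists were written with earlier results of these arrays known. Their adjusted p-values are therefore given as a description and are no independent test. E protein targets and early lymphoid genes had 8 negative and 4 positive differences among 12 tested, with a median of -0.26 against 0.02 over all genes, and none passed the test in either direction, where 0.427% of genes passed upward and 0.177% downward. Among the genes tested the largest differences were in genes of antigen receptor assembly. Rag2, a subunit of the recombinase, averaged 5.59 ± 0.68 in FLT3-ITD and 7.26 ± 0.45 in wild type, a difference of -1.66 ± 0.35 (SE; limma adjusted p = 0.110). Dntt, the terminal transferase that adds bases at the joins, averaged 11.41 ± 0.29 in FLT3-ITD and 12.28 ± 0.12 in wild type, a difference of -0.87 ± 0.16 (limma adjusted p = 0.0696). Dntt passed under 4 of 19 alternatives, with adjusted p between 0.0234 and 0.239. Cdkn1a, a cell cycle inhibitor that E proteins can induce, read 0.44 ± 0.20 (limma adjusted p = 0.549) in the other direction. Of 8 genes of this list on the array that were not tested, 7 lay below the array median on all arrays, among them Rag1 and Ebf1. The other, Il7r, the receptor chain for interleukin-7, exceeded the median on 2 arrays and had the largest difference of the list. It read 3.08, 3.88, 3.35 and 3.48 in FLT3-ITD replicates 1, 2, 3 and 037, against 5.63, 6.06, 5.16 and 6.91 in wild type, without overlap, a difference of -2.49.

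The basic helix-loop-helix partners and cofactors of E proteins did not pass in either direction. Of 8 tested 5 had negative and 3 positive differences, with a median of -0.16. Lyl1, a partner with a role in stem cells and lymphoid progenitors, read -0.47 ± 0.16 (limma adjusted p = 0.384), and Ldb1, the adaptor that joins these dimers to LMO proteins, -0.40 ± 0.17 (limma adjusted p = 0.509). The BMP and TGF-beta pathway, which controls Id1 and Id3 in many cells, had 9 negative and 3 positive differences among 12 tested, with a median of -0.30, and none passed. Its largest were Ski, a co-repressor of SMAD proteins, at -0.66 ± 0.30 (limma adjusted p = 0.527), and the receptor gene Acvr1 at -0.56 ± 0.26 (limma adjusted p = 0.556).

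Of 12 transcription factors known to control Id genes 11 were tested, with 6 positive and 5 negative differences. Of these, 2 passed upward and none downward, where 0.427% of all genes tested passed upward and 0.177% downward. Irf8, a factor of monocyte and dendritic cell development, averaged 9.61 ± 0.40 in FLT3-ITD and 6.97 ± 0.61 in wild type and rose by 2.64 ± 0.31 (SE; limma adjusted p = 0.00740). Mycn, known as an inducer of Id2 in neuroblastoma, averaged 9.89 ± 0.24 in FLT3-ITD and 7.90 ± 0.37 in wild type and rose by 1.98 ± 0.21 (limma adjusted p = 0.00385). The call on Irf8 was lost without replicate 1 of both genotypes (limma adjusted p = 0.0524), and that on Mycn when its probe sets were averaged (limma adjusted p = 0.380). The median of the list was 0.01. Gfi1, a repressor of Id2 in mouse blood stem cells, read 0.35 ± 0.15 (limma adjusted p = 0.527), and Nfil3, which acts before Id2 in innate lymphoid cells, read 0.88 ± 0.24 (limma adjusted p = 0.234).

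Genes of the lineages that need Id2 had 4 positive and 2 negative differences among 6 tested, with a median of 0.47. In this list 1 gene passed upward and 1 downward, where 0.427% and 0.177% of all genes tested did so. Irf8 rose, as above, and Rora, a nuclear receptor of innate lymphoid cells, averaged 5.90 ± 0.45 in FLT3-ITD and 7.50 ± 0.35 in wild type and so fell by 1.60 ± 0.26 in log2 units (limma adjusted p = 0.0332). The call on Rora ended on leaving out any wild type sample or FLT3-ITD replicate 3 or 037, with adjusted p up to 0.168 over the alternatives. Zbtb46, a factor of classical dendritic cells, read 2.38 ± 0.52 (limma adjusted p = 0.124). Genes of the plasmacytoid lineage that needs Tcf4 had 6 negative and 3 positive differences among 9 tested, with a median of -0.23, and none passed. Bcl11a read -0.62 ± 0.20 (limma adjusted p = 0.338) and Bst2 0.51 ± 0.38 (limma adjusted p = 0.737).

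**Figure D4:**
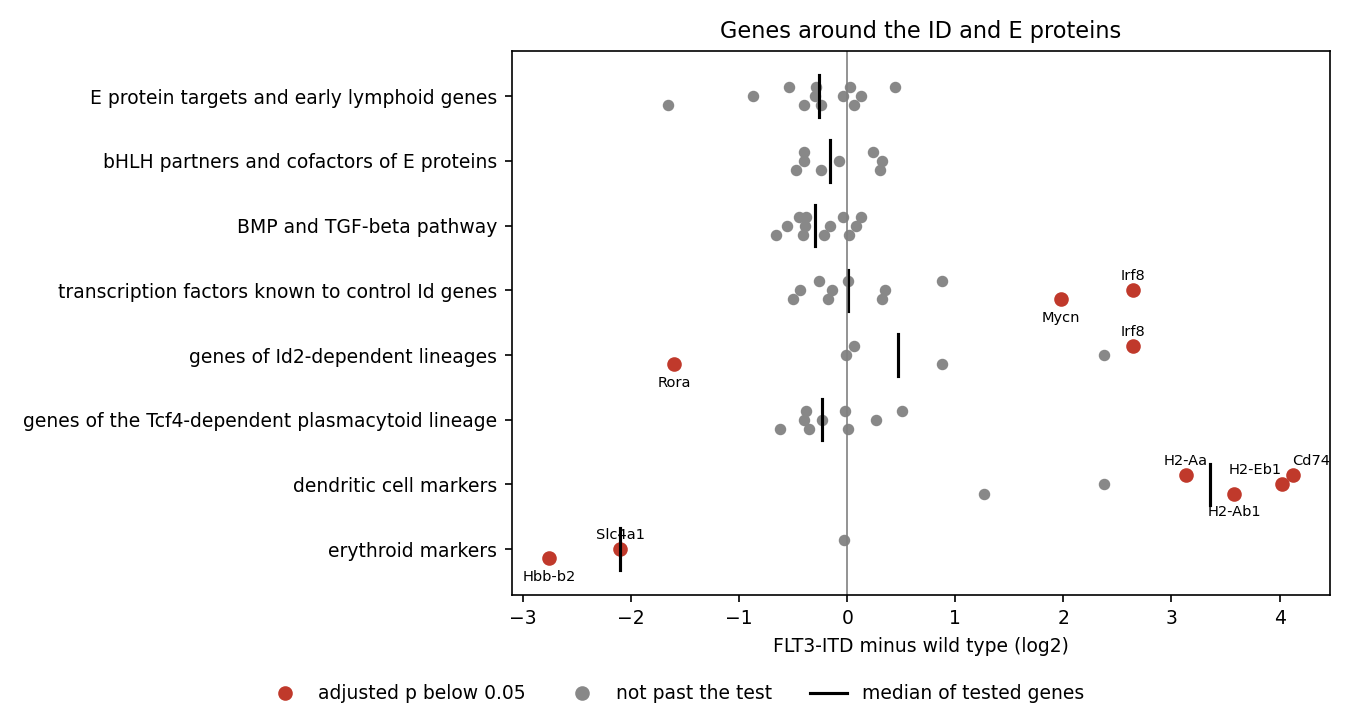
Log2 difference, FLT3-ITD less wild type (horizontal axis), for each tested gene of 6 lists around the ID and E proteins and of 2 marker lists (rows), with genes past an adjusted p of 0.05 in red and named, the others in grey and the median of each list as a black bar. The medians of the first 6 lists lie between -0.30 and 0.47, those of the dendritic cell and erythroid markers at 3.36 and -2.10.

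Markers of other cells moved in the same samples as Id2. Of 10 dendritic cell markers 6 were tested, all higher in FLT3-ITD, and 4 rose, where 0.427% of all genes tested passed upward. These 4 were Cd74, H2-Eb1, H2-Ab1 and H2-Aa, which encode the MHC class II chains and their chaperone. Cd74 averaged 11.43 ± 0.59 in FLT3-ITD and 7.30 ± 0.41 in wild type and rose by 4.12 ± 0.31 (limma adjusted p = 0.000765), and the other 3 rose by 3.13 to 4.02, with limma adjusted p of 5.42e-05 to 0.00279. Over the 9 markers on the array the mean level was 8.05 to 9.28 in the FLT3-ITD samples and 6.29 to 6.41 in wild type, and none lay below the array median on all arrays. Zbtb46, given above, did not pass, nor did Ciita, at 1.27 ± 0.32 (limma adjusted p = 0.183). Ciita exceeded the array median in FLT3-ITD samples alone. Of the markers not tested Xcr1 stood at 1.86 and Itgax at 1.24, both without overlap, and Batf3 at 0.22 with overlap. Of the natural killer and innate lymphoid markers only Prf1 was tested, at -0.07 ± 0.18 (limma adjusted p = 0.939), and the defining genes Ncr1, Eomes and Tbx21 lay below the array median on all arrays. Klrk1, an activating receptor of natural killer cells, exceeded the median on 2 arrays and was not tested. It read 6.45, 6.49, 5.87 and 4.40 in FLT3-ITD replicates 1, 2, 3 and 037, against 3.43, 4.23, 3.50 and 3.57 in wild type, without overlap, a difference of 2.12. Erythroid markers, of which 3 were tested, included 2 that fell, where 0.177% of all genes tested passed downward. The other, Klf1, read -0.03 ± 0.50 (limma adjusted p = 0.991). Of the erythroid markers not tested Gata1 and Epor stood at -0.06 and -0.05, and Alas2 at -0.78. Hbb-b2, a beta globin, fell by 2.76 ± 0.31 (limma adjusted p = 0.00576), and Slc4a1, the anion exchanger of red cells, fell by 2.10 ± 0.34 (limma adjusted p = 0.0336). Slc4a1 exceeded the array median in the 4 wild type samples alone, so it entered the fit through them and its fall reaches a dim level. The call on Hbb-b2 was lost without replicate 037 of both genotypes (limma adjusted p = 0.0710). The call on Slc4a1 was lost on leaving out either genotype's replicate 1, 2 or 037, with adjusted p up to 0.213 over the alternatives. Their mean level over 6 genes was 5.35 to 5.88 in FLT3-ITD and 6.37 to 6.66 in wild type. The part of dendritic or red cell RNA in the level of Id2 was not tested, and in these sorted samples fewer cells of a type and less RNA per cell cannot be told apart.

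Ccr2, a monocyte chemokine receptor, rose by 3.62 ± 0.52 (limma adjusted p = 0.0213). Its call was lost without FLT3-ITD replicate 2 or 3 or wild type replicate 1 or 3, with adjusted p up to 0.112 over the alternatives. Csf1r, the other monocyte and macrophage marker tested, read 0.96 ± 0.60 (limma adjusted p = 0.676). Cx3cr1, Adgre1 and Cd14 lay below the array median on all arrays and differed by 0.15, 0.27 and 0.06. The B cell markers Cd79b and Pax5 read 0.06 ± 0.14 and -0.04 ± 0.14, and the T cell markers Cd8a and Cd4 0.55 ± 0.26 and 0.06 ± 0.14. The neutrophil markers Ngp and S100a8 read -2.39 ± 0.67 and -2.07 ± 0.90, the megakaryocyte markers Itga2b and Gp9 -0.18 ± 0.14 and -0.03 ± 0.14, and the basophil marker Mcpt8 0.59 ± 0.28. None of these B cell, T cell, neutrophil, megakaryocyte and basophil markers passed the test. The limma adjusted p was 0.255 for Ngp and 0.519 for S100a8, which ranged from 5.11 to 9.75 in FLT3-ITD. Ngp passed under 1 of 18 alternatives, with limma adjusted p between 0.0278 and 0.529. All 6 neutrophil markers tested had negative differences, with a median of -1.59. Mcpt8 was the only mast cell and basophil marker tested, and of the dim ones Cpa3 stood at -1.10 without overlap, Ms4a2 at -0.48 and Fcer1a at 0.06. Plasmacytoid dendritic cell markers, of which 8 were tested, had none past the test and a median of -0.13, and their mean level was 6.43 to 6.88 in FLT3-ITD and 6.49 to 6.70 in wild type. Of the sorting markers Cd48 rose by 1.06 ± 0.13 (limma adjusted p = 0.00740), a call lost with the replicate block and without replicate 1 of both genotypes, with adjusted p up to 0.0572. Kit, the other sorting marker tested, read -0.47 ± 0.17 (limma adjusted p = 0.427). Slamf1, which encodes CD150, lay below the array median on all arrays. Ly6a, which encodes Sca-1, was not among the genes with a probe set of their own.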

How the data were processed

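RNA of 8 sorted progenitor samples was measured on Affymetrix mouse arrays after Trizol extraction, NuGEN amplification and biotin labelling, per the labels' protocols. For each probe set the authors deposited a log2 value made with RMA, per the submitters' processing notes, which name no version. RMA quantile-normalises the arrays and compresses low signals, so folds of dim probe sets are uncertain, and the small number of arrays also limits the precision. Platform annotation of 2016 gave 34945 of 45101 probe sets exactly 1 gene, 932 several and 9160 none. Of the rest, 64 are controls.

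A gene was represented by its brightest probe set on average and was tested if that exceeded the array's median in 4 or more arrays. FLT3-ITD was compared with wild type by lmFit and eBayes of limma 3.58.1 in R 4.3.3, with Benjamini-Hochberg adjustment over all genes tested and a threshold of 0.05. The code was tested on simulated data. The text names every member, of each list the genes past the test (at most 4) or otherwise the 2 with the largest difference, and the genes most like each member. Cdkn1a, Gfi1, Nfil3, Zbtb46, Il7r, Klrk1, Cpa3, Ms4a2 and Fcer1a were named after their values were seen. So were Klf1, Gata1, Epor, Alas2, Csf1r, Cx3cr1, Adgre1, Cd14, Ciita, Xcr1, Itgax, Batf3 and Kit. The members and all lists were chosen with earlier results of these arrays known. Alternatives changed the filter, centring, variance model, weights, probe set summary, the replicate block and the samples.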

Additional observations from a re-analysis of the deposited data

Results flagged for a closer look

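Groups of 4 samples were examined for the members and the other genes named, except those named after their values were seen. Of 148 such groups 6 held a sample whose gap to its nearest neighbour took up most of the group's range. Chance gives about 1 in 20. Among the members, wild type replicate 2 read 6.76 on Id4 probe set 1423260_at, above the other wild type samples at 5.26 to 5.33. FLT3-ITD replicate 1 read 7.72 on Tcf12 probe set 1421908_a_at, above the other FLT3-ITD samples at 6.62 to 6.79. It also read 9.99 for Bst2, where FLT3-ITD replicates 2, 3 and 037 lay at 8.20 to 8.47. In wild type, replicate 1 was highest for Ccr9 at 7.04 (others 6.61 to 6.65), replicate 037 was highest for Ldb1 at 10.28 (others 9.59 to 9.70), and replicate 3 was lowest for H2-Eb1 at 5.88 (others 6.73 to 6.83).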

How the results depend on the processing

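The difference of Id2, on which the family was chosen, was 3.60 to 3.96 with 1 sample left out and 2.15 as the mean over its probe sets, given as a description only. Id2 left the fit when every array had to lie above the median. The sign of each member gene's difference was kept in all 19 alternatives except for Id3, with 18. A change of filter or variance model, or the replicate block, leaves a difference of means as it is. The sign could not turn under these, so the count is no measure of stability. Single probe sets kept it less often, such as Tcf12 1439209_at and Tcf4 1416725_at in 11 of 18 and Tcf3 1452542_x_at in 15 of 18. With 1 sample left out, 28 to 45 genes were higher and 2 to 14 lower (46 and 19 with all samples), 36 to 58 probe sets were higher and 2 to 15 lower (57 and 23), and 8 to 11 of the list genes passed (11). The labels state no pairing of the samples. Same-numbered samples had deviations correlated at 0.03 to 0.11, but samples of different numbers were not compared, so this does not decide whether they are paired. With a replicate block 19 genes were higher and 3 lower, 25 probe sets higher and 4 lower, and 7 list genes passed. With all 8 arrays above the median these were 18, 7, 21, 8 and 7. Array weights gave 30 genes lower, 92 probe sets higher and 44 lower. Without replicate 037 of both genotypes 26 genes were higher and 5 lower and 3 probe sets were lower. Without replicate 1 of both, 9 genes and 7 probe sets were lower and 6 list genes passed. Averaging 037 with replicate 1 gave 13 probe sets lower, and no filter 7. The 2 comparisons that left out both samples of a name were chosen after seeing the data. The causes were not tested.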
